A study of Mus musculus with 12 samples.

Results

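The genes described here are 35 mouse genes of bone morphogenetic protein (BMP) signalling and osteogenic regulation, chosen by symbol for their known roles and matched to the Entrez IDs of a count table that holds 27179 gene IDs. All 35 were found. They comprise 6 BMP ligands, 5 BMP receptors, 4 Smads, 3 Id genes, 3 BMP antagonists, 6 Runx factors and bone transcription factors, 3 genes of bone matrix and mineralisation, 3 hedgehog genes and 2 NFAT genes. RNA was sequenced from the hippocampus of 12 mice aged 3 months, in a study of NELL-1 function in the central nervous system. *Nell-1+/6R* mice (3 females, 3 males) carry 1 copy of 6R, a chemically induced loss-of-function allele of *Nell-1*, in every cell, and were compared with WT littermates (3 females, 3 males). The model is haploinsufficient, so a normal allele of *Nell-1* remained in each *Nell-1+/6R* mouse.

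NELL-1 is a secreted protein known for promoting bone formation, and in skeletal cells it is tied to the osteoblast master regulator Runx2, which is known to bind and activate the *Nell-1* gene, and to BMP signalling. BMP ligands are secreted dimers that bring together type I and type II receptor kinases. The activated type I receptor phosphorylates Smad1, Smad5 or Smad9, which enter the nucleus with Smad4 and switch on targets such as the Id genes. In the brain, the pathway is known for its part in neural stem cell and astrocyte fate, and the meninges and choroid plexus are known sources of several ligands. The comparison asks whether the bone programme of *Nell-1* is altered in a hippocampus that has lost 1 of its normal alleles.

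The total count of a mouse ranged from 10834905 to 16016317. *Nell1* itself averaged 36.5 ± 4.55 CPM (SD, n = 6) in the WT group. In *Nell-1+/6R* hippocampus it averaged 19.1 ± 1.77 CPM (SD, n = 6), with no overlap. Its log2 fold change was -0.93 with a standard error of 0.0803 (edgeR's quasi-likelihood test with Benjamini-Hochberg adjustment over all genes tested, adjusted p = 0.00015). CPM is the count of a gene scaled by the TMM-adjusted total of its library. The markers of hippocampal principal neurons summed to 8880 to 12374 CPM in WT and 9515 to 11039 CPM in *Nell-1+/6R* mice. Of the 7 osteoblast markers, 4 passed the filter on low counts, *Sp7* among them, and the osteocalcin gene *Bglap2* and the osteocyte gene *Mepe* had a count of 0 in all 12 mice. The 7 summed to 10.02 to 13.4 CPM in WT and 8.47 to 11.6 CPM in *Nell-1+/6R* mice. The markers of choroid plexus epithelium summed to 2084 CPM in female WT replicate 1, 4634 CPM in male WT replicate 3 and 5150 CPM in female *Nell-1+/6R* replicate 1, and to 42.0 to 785 CPM in the other 9 mice.

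The order of the 35 genes was read from CPM per kilobase of merged exons, a level that can be compared between genes. *Sparc*, which encodes a secreted collagen-binding glycoprotein of bone that brain cells also make, was the highest at 32.2 ± 2.42 CPM per kilobase (SD, n = 12), above 91.7% of the genes tested that have an exon length. *Id2* followed at 23.8 ± 2.09, the BMP antagonist gene *Chrd* at 19.0 ± 1.51, *Id3* at 13.3 ± 2.20 and *Id1* at 10.7 ± 1.90 CPM per kilobase. The 3 Id genes, which are targets of the pathway, thus stood among the 5 highest of the 35. The receptor gene *Acvr1* came next at 7.85 ± 0.459 CPM per kilobase, then *Smad4* at 7.71 ± 1.602, *Cbfb* at 6.03 ± 0.903, *Bmpr1a* at 5.77 ± 1.37 and *Acvr2a* at 5.26 ± 1.39 CPM per kilobase.

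Ligands were lower in this order than most receptors and Smads. *Bmp6* ranked 14 with 3.14 ± 1.26 CPM per kilobase, *Bmp7* ranked 16 with 2.39 ± 0.878 and *Bmp4* ranked 24 with 1.09 ± 0.400 CPM per kilobase (SD, n = 12). *Bmp2* was at 0.705 ± 0.179, *Bmp5* at 0.245 ± 0.143 and *Bmp3* at 0.137 ± 0.0921 CPM per kilobase. The bone regulators were spread over the scale. *Runx2* was at 2.01 ± 0.155 CPM per kilobase and ranked 20, *Sp7* at 0.517 ± 0.203 and ranked 27, and *Runx1* and *Runx3* were the lowest pair at 0.107 ± 0.0270 and 0.0227 ± 0.0326 CPM per kilobase. Of the 34 neighbouring pairs in the order, only *Sparc* and *Id2* had ranges over the 12 mice that did not overlap, so the place of a gene next to its neighbour was not resolved elsewhere.

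**Figure D1:**
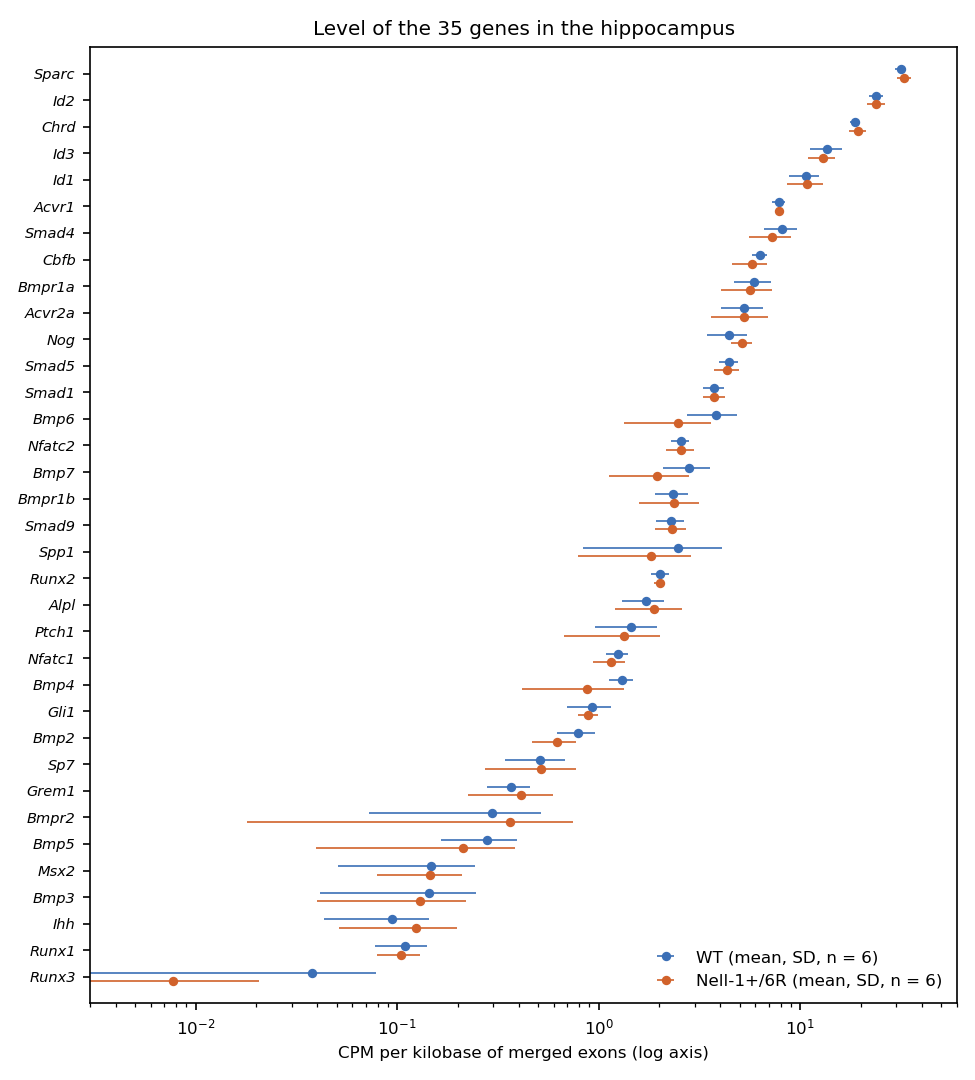
Level of each of the 35 genes as CPM per kilobase of merged exons on a log axis, with the mean and SD of the 6 WT mice (blue) and the 6 Nell-1+/6R mice (orange). The 2 genotypes lie close together for most genes, and Bmp6, Bmp7 and Bmp4 are shifted to the left in Nell-1+/6R mice.

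Of the 35 genes, 34 passed the filter on low counts, and 2 of these passed the thresholds of the study (an unadjusted p below 0.05 with a fold difference over 1.5), which is 5.88% of them. Of all 17937 genes tested, 1.46% did so. Both, *Bmp4* and *Bmp6*, are ligand genes and were lower in *Nell-1+/6R* mice, a direction that 1.07% of all genes tested took past the thresholds. *Bmp7* also had an unadjusted p under 0.05, which made 3 such genes or 8.82% of the 34, against 3.26% of all genes tested. No gene of the 34 reached an adjusted p under 0.05 (0.039% of all genes tested did), and the lowest adjusted p was 1.00 in edgeR. DESeq2 and limma-voom also gave 0 at an adjusted p under 0.05, with 3 of the 34 at an unadjusted p under 0.05 in each. The log2 fold change was below 0 for 20 of the 34 genes, with a median of -0.03, where 50.3% of all genes tested were below 0 around a median of -0.00076. For 27 of the 34, the fold change was under 1.2 in either direction, and for 0 of the 34 were the genotypes without overlap (0.151% of all genes tested). No gene was past the thresholds as higher in *Nell-1+/6R* mice (0.385% of all genes tested).

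**Figure D2:**
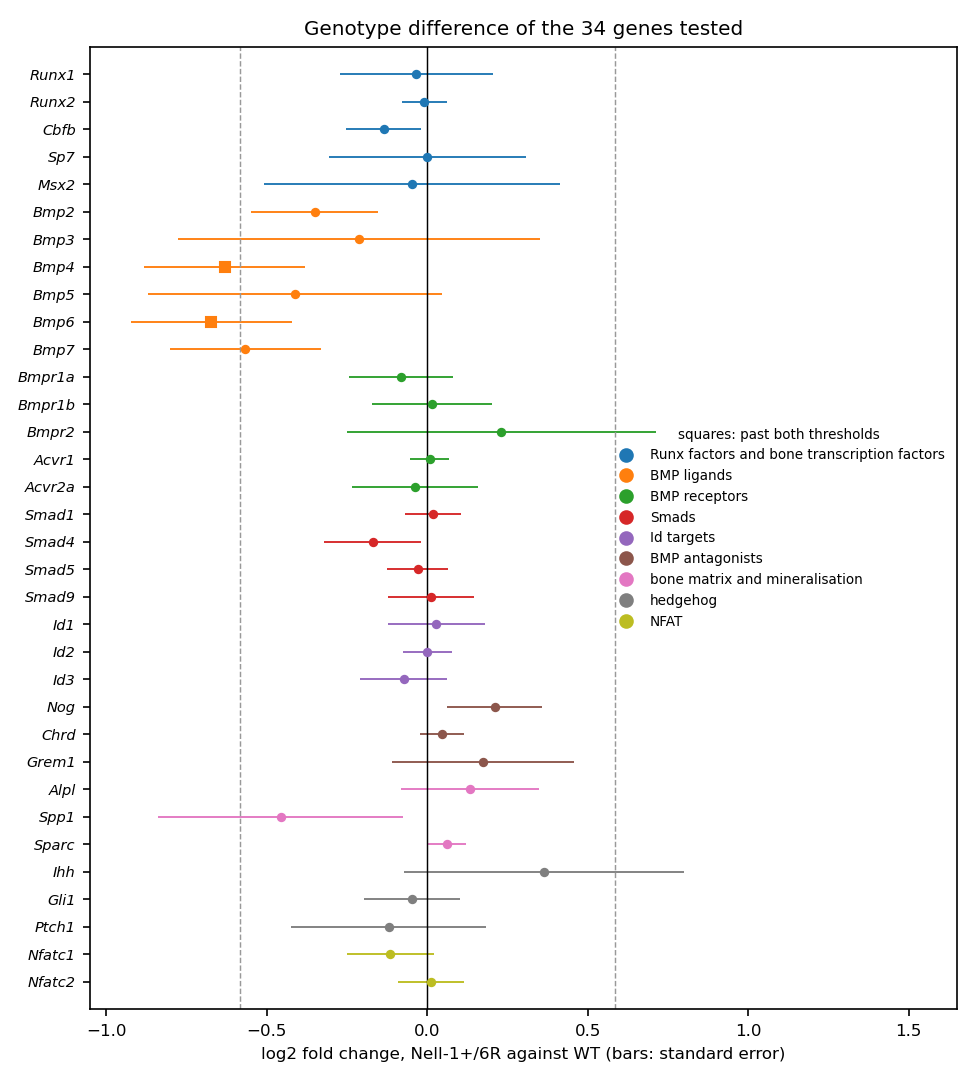
Log2 fold change of Nell-1+/6R against WT mice for the 34 genes tested, with its standard error, coloured by role. The dashed lines mark a fold change of 1.5 in either direction, and the squares are the 2 genes past both thresholds, Bmp4 and Bmp6. All 6 ligands lie left of 0, and Bmpr2, Bmp3, Msx2, Bmp5 and Ihh have the widest bars.

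*Bmp4* encodes a ligand that patterns the embryo and induces bone, and that restrains neural stem cells in the adult brain. It was at 2.32 CPM in the lowest, 2.93 CPM in the median and 3.48 CPM in the highest of the 6 WT mice, from 30 to 52 counts a mouse. In *Nell-1+/6R* mice it was at 0.792, 1.74 and 3.22 CPM in the lowest, median and highest, from 10 to 45 counts a mouse. Of the 6 *Nell-1+/6R* mice, 4 lay under the lowest WT level, while female replicates 1 and 3 lay at 3.22 and 3.19 CPM, within the WT range. The mean was 2.94 ± 0.395 CPM (SD, n = 6) for WT littermates. For *Nell-1+/6R* mice it was 1.96 ± 1.03 CPM (SD, n = 6), with the larger spread. Its log2 fold change was -0.63 with a standard error of 0.25 (edgeR, unadjusted p = 0.0246, adjusted p = 1.00). The exact permutation test of the mean CPM over all splits of the mice gave a two-sided p of 0.0606.

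*Bmp6*, whose product is known for controlling hepcidin and iron as well as for bone induction, was at 8.46 CPM in the lowest, 14.3 CPM in the median and 20.4 CPM in the highest WT mouse. The corresponding levels in *Nell-1+/6R* mice were 5.23, 8.66 and 17.6 CPM, and 2 of the 6 lay under the lowest WT level. The mean fell from 14.8 ± 4.14 CPM (SD, n = 6) to 9.62 ± 4.44 CPM (SD, n = 6). Its log2 fold change was -0.67 with a standard error of 0.25 (edgeR, unadjusted p = 0.0179, adjusted p = 1.00), and the exact permutation test gave a two-sided p of 0.0693. Counts ranged from 124 to 334 in WT and from 66 to 230 in *Nell-1+/6R* mice, so the call does not rest on single reads.

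*Bmp7*, known for kidney, eye and bone development, had 7.03, 11.9 and 15.6 CPM in the lowest, median and highest WT mouse. In *Nell-1+/6R* mice it had 4.53, 6.92 and 11.96 CPM, with 3 of 6 under the lowest WT level. The log2 fold change of *Bmp7* was -0.57 with a standard error of 0.23 (edgeR, unadjusted p = 0.0301, adjusted p = 1.00), which is a fold change of 1.48 and so just short of the threshold. The exact permutation test gave a two-sided p of 0.0909. *Bmp6* is just inside the fold threshold with a fold change of 1.595 and *Bmp4* with 1.55.

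The other 3 ligands did not pass the test. *Bmp2*, an inducer of osteoblasts, had a log2 fold change of -0.35 with a 95% interval from -0.74 to 0.04. *Bmp5* had -0.41 (interval -1.31 to 0.49), which ran from -0.90 without female *Nell-1+/6R* replicate 3 to -0.17 without male WT replicate 2, and *Bmp3*, which encodes a ligand that opposes the others in bone, -0.21 (interval -1.32 to 0.89). All 6 ligands thus had a log2 fold change below 0 with a median of -0.49, under each of the scalings tried, although *Bmp3* and *Bmp5* turned to 0.04 and 0.08 with a leptomeningeal covariate and *Bmp3* reached up to 0.17 with 1 mouse left out. A list of 14 other genes named with the BMP and activin ligands, in which *Bmp1* encodes a protease and not a ligand, did not share that direction. Of the 11 of them tested, 8 were above 0 and 3 below, with a median of 0.13, and none passed the thresholds. *Bmp4*, *Bmp6* and *Bmp7* are in the study's own list of changed genes, which was made from these mice, so their direction is not independent evidence. The summed level of the 6 ligands was 21.6 to 46.3 CPM in WT and 15.3 to 35.6 CPM in *Nell-1+/6R* mice.

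**Figure D3:**
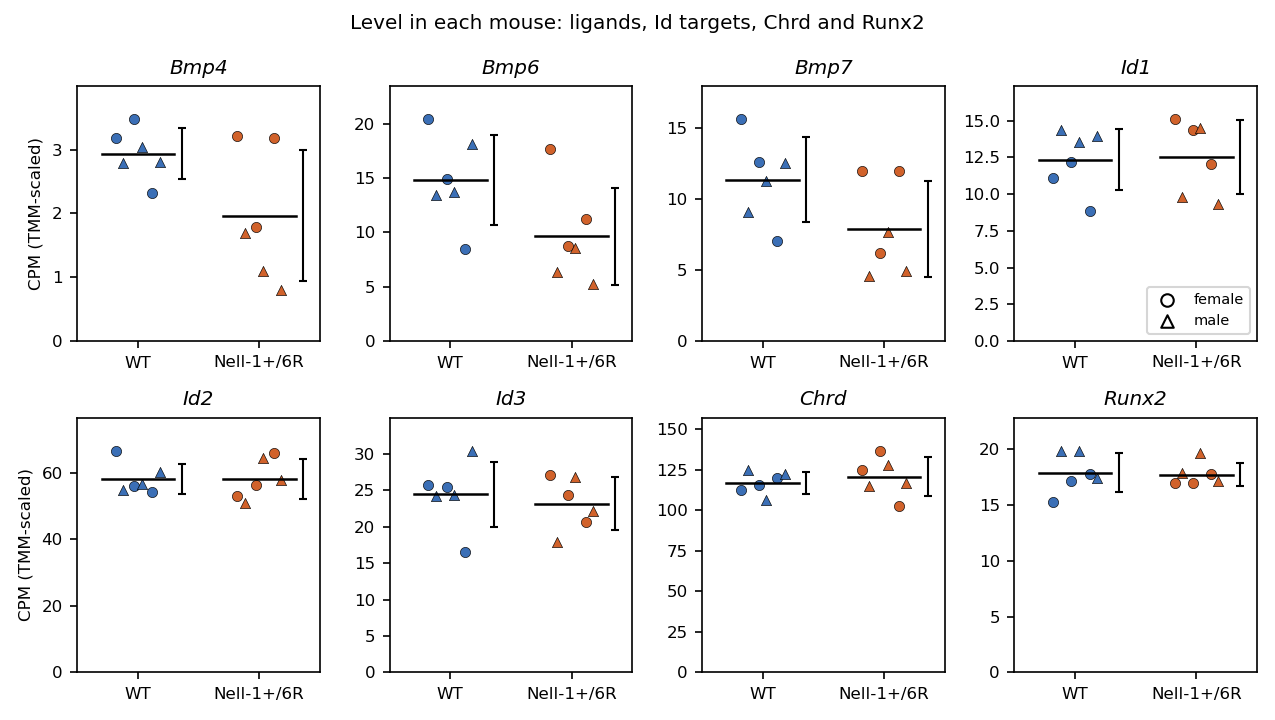
CPM of 8 genes in each mouse, by genotype, with circles for females, triangles for males, the mean as a horizontal line and the SD as a bar (n = 6). Bmp4, Bmp6 and Bmp7 are lower in the 3 Nell-1+/6R males than in each WT male, whereas Id1, Id2, Id3, Chrd and Runx2 overlap between the genotypes.

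The levels of *Bmp4*, *Bmp6* and *Bmp7* went in part of the mice with markers of the leptomeninges, the thin membranes that cover the brain surface. The 18 markers of leptomeningeal fibroblasts, among them the collagen genes *Col1a1*, *Col1a2* and *Col3a1*, summed to 155 to 473 CPM in WT and 94.4 to 409 CPM in *Nell-1+/6R* mice (exact permutation test, two-sided p = 0.139). Of the 18, all had a log2 fold change below 0, 9 passed the thresholds, and none of them was at 0 in all mice. Their median log2 fold change was -0.83, and 11 of the 18 are in the study's list of changed genes. Female WT replicate 1 had the highest summed level (473 CPM) and the highest *Bmp6* and *Bmp7*, and the 4 *Nell-1+/6R* mice with *Bmp4* below every WT mouse had summed levels of 94.4, 98.4, 116 and 150 CPM, below every WT mouse. Female *Nell-1+/6R* replicates 1 and 3, with *Bmp4* in the WT range, had summed levels of 409 and 278 CPM. Within a genotype, *Bmp4* did not follow the sum throughout. It was at 2.81 CPM in male WT replicate 3 (402 CPM) and at 3.48 CPM, the highest for WT, in female WT replicate 2 (284 CPM). Female *Nell-1+/6R* replicate 2, with the lowest sum (94.4 CPM), had *Bmp4* at 1.79 CPM, against 0.792 CPM in male *Nell-1+/6R* replicate 3 (116 CPM). *Bmp2* (3.54 CPM) and *Bmp3* (2.08 CPM) were also highest in female WT replicate 1, but their lowest levels lay in mice with high marker sums. The lowest *Bmp2* of the 12 mice, 1.46 CPM, was in female *Nell-1+/6R* replicate 1, and the lowest *Bmp3*, 0.0879 CPM, was in male WT replicate 3, with a summed level of 402 CPM. The 3 mice with the highest leptomeningeal sums (473, 409 and 402 CPM) were also those with the highest choroid plexus markers, and they held the highest *Bmp6* of the 12 mice, at 20.4, 17.6 and 18.1 CPM in the same order.

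With the log2 summed leptomeningeal level as a further covariate, the log2 fold change of *Bmp4* was -0.33 (edgeR, unadjusted p = 0.196), that of *Bmp6* was -0.18 (unadjusted p = 0.266) and that of *Bmp7* was -0.09 (unadjusted p = 0.499), and 0 of the 34 genes passed the thresholds, where 1.13% of all genes tested did so in that fit. That of *Bmp2* was -0.31, against -0.35 without the covariate. With the covariate made from the markers outside the study's list, the values of *Bmp4*, *Bmp6* and *Bmp7* were -0.41, -0.29 and -0.22. In each fit with such a covariate, 1 of the 34 genes, none of these 3, had an unadjusted p under 0.05. Of the 17937 genes tested, 317 and 347 did so in the same order. Markers of border-associated macrophages were also lower, with 5 of 6 past the thresholds and summed levels of 6.35 to 12.7 CPM in WT and 3.45 to 9.41 CPM in *Nell-1+/6R* mice (exact permutation test, two-sided p = 0.0216). These 5 markers are in the study's list of changed genes, which was made from these mice. Of the 7 mural cell markers, 3 passed the thresholds as lower, with summed levels of 128 to 221 CPM in WT and 108 to 158 CPM in *Nell-1+/6R* mice. These 3 are in the study's list too, so neither marker list is independent evidence. Markers of newly formed oligodendrocytes went with *Bmp4* in some mice and not in others. The 6 markers summed to 243 to 405 CPM in WT and 208 to 389 CPM in *Nell-1+/6R* mice (exact permutation test, two-sided p = 0.539), and 0 of the 6 passed the thresholds. Among WT mice, female replicate 2 had the highest sum and the highest *Bmp4*, and female replicate 3 had the lowest of both. Male *Nell-1+/6R* replicate 3 had the lowest of both among all 12 mice, whereas female *Nell-1+/6R* replicate 2 had a sum of 303 CPM with *Bmp4* at 1.79 CPM. Female *Nell-1+/6R* replicate 3 had a sum of 262 CPM with *Bmp4* at 3.19 CPM, and male *Nell-1+/6R* replicate 2 had 295 CPM with *Bmp4* at 1.10 CPM. In whole hippocampus, fewer cells of a type and less RNA per cell cannot be told apart, and the part of these cells in the ligand difference was not tested. Without the 3 mice of high choroid plexus markers, a choice made after seeing the data, the log2 fold changes of *Bmp4*, *Bmp6* and *Bmp7* were -0.74, -0.64 and -0.49, and *Bmp4* and *Bmp6* still passed the thresholds.

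**Figure D4:**
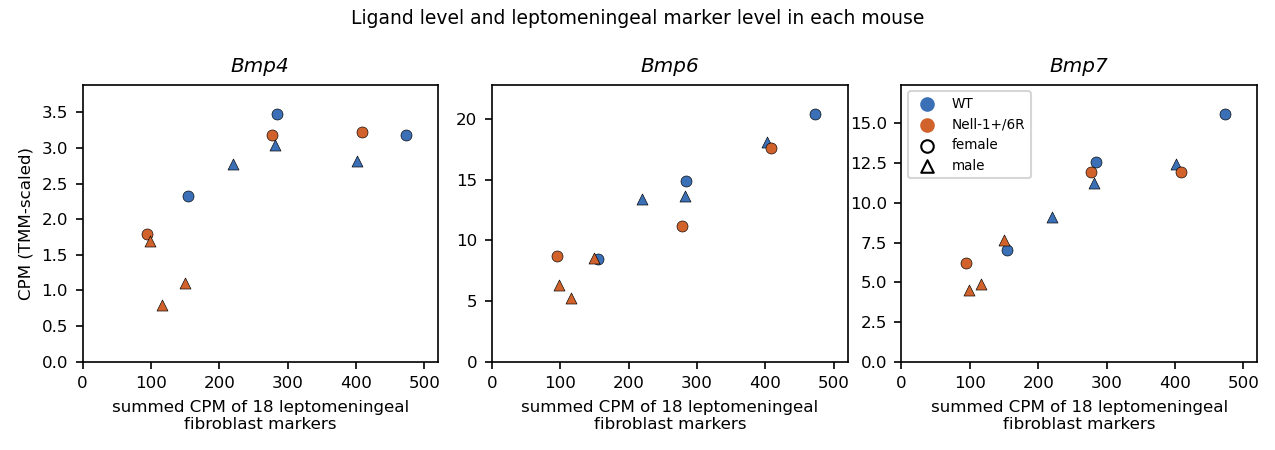
CPM of Bmp4, Bmp6 and Bmp7 in each of the 12 mice against the summed CPM of 18 leptomeningeal fibroblast markers (blue, WT; orange, Nell-1+/6R; circles, females; triangles, males). The 4 Nell-1+/6R mice with marker sums from 94.4 to 150 CPM hold the lowest Bmp4 levels, and female WT replicate 1, at 473 CPM, holds the highest Bmp6 and Bmp7.

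The calls of *Bmp4* and *Bmp6* also rested on single mice. Without male WT replicate 3 or without male *Nell-1+/6R* replicate 3, 0 of the genes passed the thresholds. *Bmp4* was lost without female *Nell-1+/6R* replicate 2 and also without male WT replicate 2, and *Bmp6* without female WT replicate 1, which left 1 gene in each. *Bmp4* was further lost without male *Nell-1+/6R* replicate 2. *Bmp7* passed the thresholds in 6 of the 12 fits, without female *Nell-1+/6R* replicate 1 or 3, female WT replicate 2 or 3, male WT replicate 1 or male *Nell-1+/6R* replicate 2. Over the fits without 1 mouse, the log2 fold change of *Bmp4* ranged from -0.77 to -0.49, that of *Bmp6* from -0.88 to -0.56 and that of *Bmp7* from -0.73 to -0.47.

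The fitted genotype difference of *Bmp4*, *Bmp6* and *Bmp7* was larger in males than in females, which was not so for each of the other ligands. In males, the highest *Nell-1+/6R* level stayed under the lowest WT level for 3 of the 34 genes, *Bmp4*, *Bmp6* and *Bmp7*, while 5.66% of all genes tested met that condition. *Bmp4* was at 2.78, 3.04 and 2.81 CPM in WT males and at 1.69, 1.10 and 0.792 CPM in *Nell-1+/6R* males. Its log2 fold change was -1.25 (SE 0.31) in males and -0.12 (SE 0.28) in females. *Bmp6* fell by 1.16 (SE 0.32) on the log2 scale in males and *Bmp7* fell by 0.94 (SE 0.32), and these 3 genes were the ones of the 34 past the thresholds in males (2.03% of all genes tested). In females, the log2 fold changes of *Bmp6* and *Bmp7* were -0.22 (SE 0.31) and -0.22 (SE 0.31), and 0 of the 34 passed the thresholds (1.56% of all genes tested). *Bmp2* had -0.48 (SE 0.28) in females and -0.21 (SE 0.29) in males, *Bmp3* had -0.99 (SE 0.79) and 0.53 (SE 0.77), and *Bmp5* had 0.15 (SE 0.60) and -1.08 (SE 0.66). The leptomeningeal markers summed to 219 to 402 CPM in WT males and 98.4 to 150 CPM in *Nell-1+/6R* males, against 155 to 473 CPM in WT females and 94.4 to 409 CPM in *Nell-1+/6R* females, and those of newly formed oligodendrocytes to 297 to 313 CPM in WT males and 208 to 295 CPM in *Nell-1+/6R* males, against 243 to 405 CPM in WT females and 262 to 389 CPM in *Nell-1+/6R* females. A difference between the sexes was not tested for either list.

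The difference between the sexes was tested as the genotype by sex interaction, and 2 of the 34 genes had an unadjusted p under 0.05 (3.09% of all genes tested). For *Bmp4* the male log2 fold change minus the female was -1.13 (edgeR, unadjusted p = 0.0181, adjusted p = 0.987). For *Id1* it was -0.68 (unadjusted p = 0.0174, adjusted p = 0.987), from 0.37 in females to -0.31 in males. The interaction of *Bmp6* was -0.94 (unadjusted p = 0.0554) and that of *Bmp7* was -0.72 (unadjusted p = 0.128). No interaction of any gene tested reached an adjusted p under 0.05. The count of 2 became 5 without female *Nell-1+/6R* replicate 2 and 4 without female *Nell-1+/6R* replicate 3 or female WT replicate 1.

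The promoters of the ligands past the thresholds are shown because these are the genes that the unadjusted test called. The 250 bases before the start of the gene were taken from RefSeq on GRCm38.p6 (26 of the 35 genes matched, with 35 entries), and searched on both strands for the GC-rich words GGCGCC and GGAGCC, which BMP-activated Smads are known to bind, and for the Runx word TGTGGT. The unmatched genes were *Bmp2*, *Bmp3*, *Bmp7*, *Gli1*, *Id1*, *Nfatc1*, *Nog*, *Smad4* and *Sp7*. Matches of different words cannot share letters, while neighbouring matches of TGTGGT can share 1. Capitals mark a match. The window of *Bmp4* is chr14:46390670-46390919 on the minus strand and holds GGCTCC, the reverse complement of GGAGCC, 32 bases before the start. The window of *Bmp6* is chr13:38345466-38345715 on the plus strand, where none of the 3 words occurs.
Bmp4: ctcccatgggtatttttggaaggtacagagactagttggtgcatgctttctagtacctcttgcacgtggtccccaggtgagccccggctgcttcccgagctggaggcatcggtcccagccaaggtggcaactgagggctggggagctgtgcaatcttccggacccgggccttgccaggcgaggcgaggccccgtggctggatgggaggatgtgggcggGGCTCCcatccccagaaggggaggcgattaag
Bmp6: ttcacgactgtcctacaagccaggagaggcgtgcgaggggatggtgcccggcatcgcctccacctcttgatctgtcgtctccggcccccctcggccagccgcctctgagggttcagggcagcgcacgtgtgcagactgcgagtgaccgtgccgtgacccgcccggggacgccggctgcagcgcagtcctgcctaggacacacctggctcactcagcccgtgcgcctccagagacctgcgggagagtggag

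No receptor gene passed the test. *Acvr1*, which encodes a type I receptor, was the most abundant receptor and among the steadiest of the genes, with 34.4, 37.6 and 42.0 CPM in the lowest, median and highest WT mouse and 34.9, 38.2 and 40.2 CPM in *Nell-1+/6R* mice. It had a log2 fold change of 0.01 with a 95% interval from -0.11 to 0.13, an interval that holds no change as large as 1.2-fold. *Bmpr1a* and *Bmpr1b*, the other type I receptor genes, had log2 fold changes of -0.08 (interval -0.40 to 0.24) and 0.01 (interval -0.35 to 0.38). The type II receptor gene *Acvr2a* had -0.04 (interval -0.42 to 0.35).

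*Bmpr2*, which encodes the main type II receptor for BMPs, could not be measured with that precision. In WT mice it was at 2.32 to 4.30 CPM in 5 mice and at 13.3 CPM in male replicate 2, and in *Nell-1+/6R* mice at 2.57 to 4.67 CPM in 5 mice and at 20.4 CPM in male replicate 3. The log2 fold change was 0.23 with an interval from -0.71 to 1.17, and it turned to -0.45 with 1 mouse left out. Merged exons of *Bmpr2* span 17983 bases, the most of the 35 genes. The 2706 genes with over 8000 bases of merged exons, a set defined after seeing the data, had their highest median deviation in the same mice, 0.16 in male *Nell-1+/6R* replicate 3 and 0.13 in male WT replicate 2 on the log2 scale, followed by 0.12 in female *Nell-1+/6R* replicate 3, and their lowest, -0.18, in female *Nell-1+/6R* replicate 1. The part of exon length in the spread of *Bmpr2* was not tested.

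No Smad gene passed the test. *Smad4*, the partner shared with the TGF-beta branch, was the most abundant per kilobase and had 21.8, 30.6 and 38.7 CPM in the lowest, median and highest WT mouse and 20.4, 26.4 and 35.5 CPM in *Nell-1+/6R* mice. *Smad4* had a log2 fold change of -0.17 (interval -0.47 to 0.13). The receptor-activated *Smad1*, *Smad5* and *Smad9* had 0.02 (interval -0.15 to 0.19), -0.03 (interval -0.22 to 0.16) and 0.01 (interval -0.25 to 0.27).

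**Figure D5:**
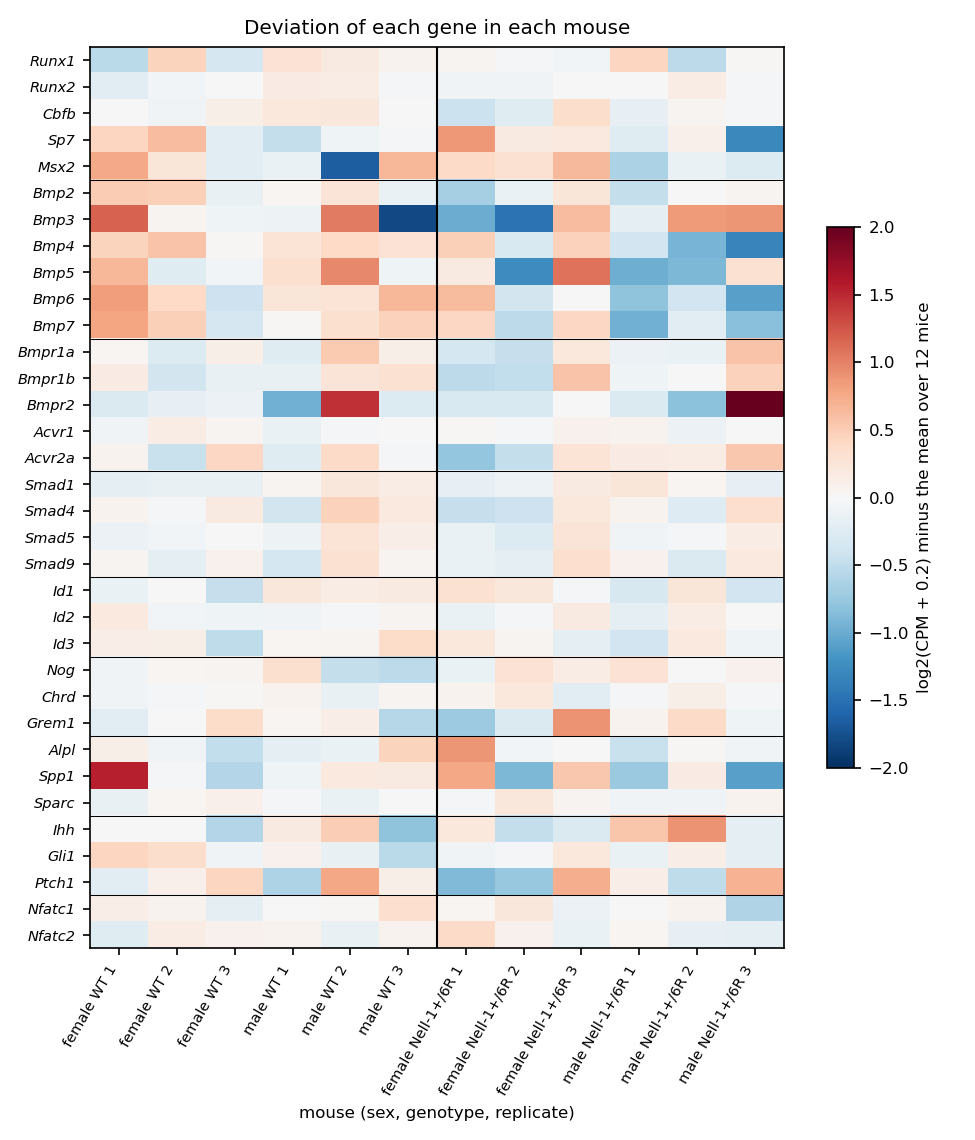
Deviation of log2(CPM + 0.2) from the mean over the 12 mice for the 34 genes tested, with red above and blue below the mean. Columns are mice, with WT left and Nell-1+/6R right of the vertical line, and horizontal lines separate the roles. Bmp4, Bmp6 and Bmp7 are blue in the 3 Nell-1+/6R males, and Bmpr2 is darkest red in male Nell-1+/6R replicate 3.

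The Id genes, which encode inhibitors of basic helix-loop-helix factors and serve as readouts of BMP signalling, did not pass the test. *Id2* had 54.3, 56.2 and 66.6 CPM in the lowest, median and highest WT mouse and 50.9, 57.1 and 65.9 CPM in *Nell-1+/6R* mice. Its log2 fold change was -0.00051 with a standard error of 0.0765, and its interval from -0.15 to 0.15 holds no fold change of 1.2 in either direction. *Id1* had 8.87, 12.9 and 14.4 CPM in WT mice and 9.34, 13.2 and 15.1 CPM in *Nell-1+/6R* mice, a log2 fold change of 0.03 (interval -0.27 to 0.32). *Id3* had -0.07 (interval -0.34 to 0.19). The 3 levels overlapped between the genotypes throughout, and *Id1* differed in direction between the sexes as described above, with 8.87 to 12.2 CPM in WT and 12.03 to 15.1 CPM in *Nell-1+/6R* females, and 13.5 to 14.4 CPM in WT and 9.34 to 14.5 CPM in *Nell-1+/6R* males.

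The windows of *Id2* and *Id3* are shown as those of the Id genes matched. GGCGCC was present in 28.6% of the 35 promoter entries of the genes and in 9.59% of all 32851 promoters, and GGAGCC in 42.9% and 26.0%. The entries are those of the 26 genes matched, and base composition was not taken into account. *Id2*, at chr12:25096093-25096342 on the minus strand, has GGCGCC 231 bases and GGAGCC 88 bases before the start. *Id3*, at chr4:136143572-136143821 on the plus strand, has GGCTCC 187 bases before the start.
Id2: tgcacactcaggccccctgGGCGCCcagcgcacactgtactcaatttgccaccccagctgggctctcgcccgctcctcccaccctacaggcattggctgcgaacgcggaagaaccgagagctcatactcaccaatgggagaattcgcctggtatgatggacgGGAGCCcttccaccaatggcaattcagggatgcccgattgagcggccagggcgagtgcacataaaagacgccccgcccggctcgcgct
Id3: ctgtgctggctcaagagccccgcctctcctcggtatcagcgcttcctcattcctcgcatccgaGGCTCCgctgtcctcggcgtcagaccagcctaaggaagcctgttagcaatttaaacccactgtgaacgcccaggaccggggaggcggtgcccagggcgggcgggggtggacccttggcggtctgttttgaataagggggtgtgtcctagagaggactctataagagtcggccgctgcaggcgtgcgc

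Antagonists bind BMP ligands outside the cell and keep them from their receptors. *Chrd*, which encodes chordin, was the most abundant with 106, 118 and 125 CPM in the lowest, median and highest WT mouse and 102, 121 and 137 CPM in *Nell-1+/6R* mice. *Chrd* had a log2 fold change of 0.05 (interval -0.09 to 0.18). *Nog*, which encodes noggin, had 0.21 (interval -0.08 to 0.50), with 1 of 6 *Nell-1+/6R* mice below the WT median. *Grem1*, which encodes gremlin 1, had 0.17 (interval -0.38 to 0.73). All 3 values were above 0 and none passed the test, and that of *Grem1* turned to -0.12 without 1 mouse.

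*Runx2*, the factor that commits cells to the osteoblast lineage and is known to regulate *Nell-1* itself, did not pass the test, within narrow limits. It had 15.2, 17.6 and 19.8 CPM in the lowest, median and highest WT mouse and 16.9, 17.5 and 19.6 CPM in *Nell-1+/6R* mice, from 198 to 267 counts a mouse. The log2 fold change was -0.01 with a standard error of 0.0709 and an interval from -0.15 to 0.13, so that a change of 1.5-fold lies outside it. *Cbfb*, the shared partner of the Runx factors and the most abundant of this group, had 19.7, 21.6 and 24.3 CPM in WT and 15.3, 19.4 and 26.7 CPM in *Nell-1+/6R* mice, a log2 fold change of -0.14 (interval -0.36 to 0.09). *Runx1*, a regulator of blood formation that microglia also use, had -0.03 (interval -0.50 to 0.43) from 11 to 26 counts a mouse.

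*Sp7*, which acts after Runx2 in osteoblasts, and the homeobox gene *Msx2* were measured on few counts, 7 to 41 a mouse for *Sp7* and 0 to 14 for *Msx2*. *Sp7* had 1.75 ± 0.577 CPM (SD, n = 6) among WT littermates against 1.77 ± 0.845 CPM (SD, n = 6) among *Nell-1+/6R* mice, and its log2 fold change of 0.0004 had an interval from -0.60 to 0.60. *Msx2* had 0 to 0.856 CPM in WT and 0.203 to 0.779 CPM in *Nell-1+/6R* mice, and its log2 fold change of -0.05 had an interval from -0.95 to 0.86. *Runx3* had a summed count of 14 in WT and 3 in *Nell-1+/6R* mice, 7 of them in male WT replicate 2, and was not tested. For *Sp7* and *Msx2*, a difference of 1.5-fold lies inside the interval.

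Bone matrix genes did not pass the test either. *Sparc* had 110, 120 and 131 CPM in the lowest, median and highest WT mouse and 116, 123 and 143 CPM in *Nell-1+/6R* mice, with a log2 fold change of 0.06 (interval -0.06 to 0.18). *Alpl*, which encodes tissue-nonspecific alkaline phosphatase, had 0.13 (interval -0.29 to 0.55). Its value ran from 0.11 to 0.50 over the alternative settings other than the fits without 1 mouse. *Spp1*, which encodes osteopontin, had the largest value outside the ligands, -0.46 (interval -1.21 to 0.29), with 1.98, 3.26 and 9.41 CPM in the lowest, median and highest WT mouse and 1.35, 2.60 and 5.37 CPM in *Nell-1+/6R* mice. The highest WT mouse, female replicate 1, was also the one with the highest leptomeningeal markers, and with that covariate the value of *Spp1* turned to 0.29. Without that mouse it was -0.047, so the size of the *Spp1* value rested on 1 mouse.

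The *Spp1* window is shown as the promoter entry, of 2 for this bone matrix gene, that holds the Runx word. TGTGGT was found in 8.57% of the promoter entries of the genes, those of *Runx2*, *Runx3* and *Spp1*, and in 14.0% of all promoters. The window is chr5:104434861-104435110 on the plus strand and holds ACCACA, the reverse complement, 128 bases before the start.
Spp1: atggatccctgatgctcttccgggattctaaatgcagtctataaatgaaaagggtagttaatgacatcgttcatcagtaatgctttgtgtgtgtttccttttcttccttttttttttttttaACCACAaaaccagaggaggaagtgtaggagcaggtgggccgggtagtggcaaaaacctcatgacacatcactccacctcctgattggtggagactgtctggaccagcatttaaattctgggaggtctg

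Hedgehog and NFAT genes are further regulators tied to NELL-1 in cartilage and bone. *Ptch1*, the hedgehog receptor and a target of the pathway, was the most abundant hedgehog gene of the 3 and had 11.9, 19.8 and 31.6 CPM in the lowest, median and highest WT mouse and 9.81, 16.5 and 30.6 CPM in *Nell-1+/6R* mice. It had a log2 fold change of -0.12 (interval -0.71 to 0.47), and its exons span 14185 bases, so that it is also one of the genes with over 8000 bases. *Runx1* (12025 bases), *Nfatc2* (10578 bases) and *Runx2* (8837 bases) are so too. *Nfatc2* was highest, at 35.1 CPM, in female *Nell-1+/6R* replicate 1, where the long genes had their lowest median deviation. *Gli1*, a transcription factor that reports hedgehog activity, had -0.05 (interval -0.34 to 0.25), and the ligand gene *Ihh*, at 0.0879 to 0.734 CPM over the 12 mice, had 0.36 (interval -0.49 to 1.22). *Nfatc2* and *Nfatc1*, calcium-regulated factors, had 0.01 (interval -0.19 to 0.21) and -0.12 (interval -0.38 to 0.15).

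A list of 95 further genes of the same pathways was read in the same fit, and 87 of them were tested. Of these, 4 passed the thresholds as lower in *Nell-1+/6R* mice and 0 as higher, where 1.07% and 0.385% of all genes tested did so, and none had an adjusted p under 0.05. *Col1a1* and *Col1a2*, the chains of type I collagen, fell by 0.93 (SE 0.25) and 1.09 (SE 0.32) on the log2 scale, and *Mgp*, which encodes matrix Gla protein, fell by 0.71 (SE 0.26). *Dlx3* passed on a summed count of 15 in WT against 3 in *Nell-1+/6R* mice. The 2 collagen genes are also leptomeningeal markers, and *Col1a1*, *Col1a2*, *Mgp* and *Dlx3* are in the study's list, as is *Smad6*. The inhibitory Smad gene *Smad6* had -0.58 (unadjusted p = 0.0488, adjusted p = 1.00 in edgeR) without passing the fold threshold. The same held for *Gas1*, which encodes a hedgehog coreceptor and had -0.19 (unadjusted p = 0.0307, adjusted p = 1.00 in edgeR), and 11 of the 12 other hedgehog genes were below 0 with a median of -0.11. *Smad7* had 0.0037 and *Id4* 0.03. The 8 other calcineurin and NFAT genes, 10 other receptors and coreceptors and 13 other antagonists tested held no gene past the thresholds.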

How the data were processed

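RNA of 12 hippocampi was read as single reads on an Illumina HiSeq system. The authors aligned the reads to mm10 (GRCm38) with HISAT2 and deposited raw counts per Entrez gene ID from featureCounts (HISAT2 2.1.0 and featureCounts 2.0.1 in the submitters' processing notes), neither normalized nor pooled. The sources used here do not give the strand setting or the handling of reads on several genes, and overlapping genes may share reads. WT samples are titled with a short form of heterozygous, so groups were taken from the genotype field. Columns were assigned to mice by short name.

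The 17937 genes that reached 0.2 CPM in 2 or more mice, the filter of the study, were tested with edgeR 4.0.16 (quasi-likelihood test, TMM factors, sex and genotype) in R 4.3.3, and p was adjusted by the Benjamini-Hochberg method over all of them. Intervals of fold changes are normal 95% intervals from the standard errors. Sex effects came from a model of 4 groups. Mean CPM was compared by exact permutation tests over all splits of 6 against 6, whose smallest two-sided p is 0.00216. Exon lengths came from GENCODE M21, and gene names, positions and promoters from RefSeq. The test was run on simulated counts first. Alternatives were other scalings, filters and covariates, DESeq2 1.42.0, limma-voom 3.58.1, a replicate block and each mouse left out.

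The genes, marker lists and further pathway genes were chosen with earlier results of these data known. Values were named for those of the 35 genes with an unadjusted p under 0.05, for *Bmp4*, *Bmp6* and *Bmp7*, and for the most abundant gene of each role, and the others are given by their fold change. Of the further pathway genes, those past the thresholds were named. *Bmpr2*, *Id1*, *Spp1* and *Runx2* were given per mouse, and *Smad6*, *Smad7*, *Id4* and *Gas1* were named, after their values had been seen. The p-values measure the spread between mice, and since the reads have no molecular identifiers, counting error is the least error of a count.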

Additional observations from a re-analysis of the deposited data

Results flagged for a closer look

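A mouse was singled out where it lay far from the other 5 mice of its genotype by Dixon's criterion (the gap to the nearest mouse over the whole range), and 6 of 70 gene and genotype groups met it, where chance gives about 1 in 20. *Bmpr2* did so in both genotypes, at 13.3 CPM in male WT replicate 2 and at 20.4 CPM in male *Nell-1+/6R* replicate 3. *Alpl* was at 13.1 CPM in female *Nell-1+/6R* replicate 1, the mouse with the highest choroid plexus markers, against 5.07 to 7.12 CPM in the other *Nell-1+/6R* mice. *Spp1* was at 9.41 CPM in female WT replicate 1, the mouse with the highest leptomeningeal markers, against 1.98 to 3.55 CPM in the other WT mice. *Runx2* was at 19.6 CPM in male *Nell-1+/6R* replicate 2, against 16.9 to 17.9 CPM in the others of that genotype. *Runx3* was at 0.592 CPM in male WT replicate 2, which is 7 counts. The part of these markers in the levels of *Alpl* and *Spp1* was not tested.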

How the results depend on the processing

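The genes past both thresholds were *Bmp4* and *Bmp6* in most settings. Their number was 3 in limma-voom with genotype alone, where *Bmp7* also passed, 3 without a filter, where *Runx3* passed on its few counts, 1 with genotype alone, 0 with the leptomeningeal covariate, also when the covariate was made outside the study's list, and 0 to 3 without 1 mouse. The number with an adjusted p under 0.05 was 0 in every setting run. The number with an interaction was 2 to 5 without 1 mouse. Over all genes, 261 passed, 202 to 400 without 1 mouse, 82 where 1 CPM was required in 6 or more mice, 110 with filterByExpr, 170 in DESeq2 and 584 with no fold threshold. With the replicate block, 233 genes passed, *Bmp4* and *Bmp6* among them. Correlations of the deviations of mice with the same replicate number ran from -0.20 to 0.35, within the range of mice with different numbers (-0.36 to 0.36). The numbers were therefore not taken as pairs, and the block changed no call among the 34 genes.

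None of the genes whose log2 fold change changed sign had passed the test. These are its values where the sign changed. Without the 3 mice of high choroid plexus markers, it was -0.079 for *Sp7*, 0.65 for *Msx2*, 0.056 for *Acvr2a*, -0.022 for *Id1*, 0.10 for *Id2* and -0.10 for *Nfatc2*. In DESeq2, it was 0.0026 for *Id2*. With DESeq2's size factors, it was 0.0028 for *Id2*. With the leptomeningeal covariate, it was 0.33 for *Msx2*, 0.037 for *Bmp3*, 0.079 for *Bmp5*, 0.029 for *Smad5*, 0.065 for *Id2*, 0.12 for *Id3*, 0.29 for *Spp1* and -0.011 for *Sparc*. With that covariate made outside the study's list, it was 0.26 for *Msx2*, 0.0060 for *Smad5*, 0.041 for *Id2*, 0.081 for *Id3* and 0.077 for *Spp1*. In limma-voom with genotype alone, it was 0.010 for *Runx1*, 0.0022 for *Runx2*, -0.11 for *Sp7*, 0.26 for *Msx2* and -0.021 for *Bmpr1b*. In limma-voom with sex, it was -0.012 for *Sp7*, 0.30 for *Msx2* and -0.033 for *Bmpr1b*. Without a filter, it was -3.43e-05 for *Sp7*. With the replicate block, it was -0.012 for *Sp7* and -0.029 for *Bmpr1b*. Without 1 mouse, the value ran from -0.15 to 0.12 for *Runx1*, -0.044 to 0.014 for *Runx2*, -0.16 to 0.15 for *Sp7*, -0.26 to 0.31 for *Msx2*, -0.51 to 0.17 for *Bmp3*, -0.21 to 0.0057 for *Bmpr1a*, -0.19 to 0.10 for *Bmpr1b*, -0.45 to 0.65 for *Bmpr2*, -0.017 to 0.034 for *Acvr1*, -0.15 to 0.090 for *Acvr2a* and -0.046 to 0.072 for *Smad1*, and from -0.12 to 0.016 for *Smad5*, -0.076 to 0.085 for *Smad9*, -0.064 to 0.12 for *Id1*, -0.042 to 0.044 for *Id2*, -0.17 to 0.0048 for *Id3*, -0.12 to 0.34 for *Grem1*, -0.082 to 0.29 for *Alpl*, -0.13 to 0.020 for *Gli1*, -0.41 to 0.043 for *Ptch1* and -0.069 to 0.052 for *Nfatc2*. The cause of these sign changes was not tested. The summed microglia markers changed sign to 0.013 as a mean of log2 CPM. Depth limits *Msx2*, *Ihh* and *Runx3*, each with under 10 counts a mouse on average.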
